A study of Mus musculus with 18 samples.

Results

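The comparison set neutrophils sorted from Lung against neutrophils sorted from Spleen, with 3 libraries in each group and therefore 6 of the 18 libraries in the series. The 6 libraries were chosen by tissue label alone. The comparison and the gene lists, however, were chosen with earlier results of these data known. Counts of list members that passed therefore describe these data and are not independent tests. The series asks how neutrophils differ between 6 tissues, which also include Blood, bone marrow (BM), Intestine and Skin. Each Lung library and each Spleen library held total RNA of Ly6G+ neutrophils from C57BL/6 mice, an inbred laboratory strain, that were 8 to 12 weeks old. No treatment, transgene or deletion is named for either group. Cells were sorted by flow cytometry on CD45, a marker of all leukocytes, on CD11b, an integrin of myeloid cells, and on Ly6G, which marks mouse neutrophils, with DAPI as a further label. Purity was typically above 95% according to the labels. Separate mice are not stated for the replicates, so p-values here reflect library-to-library spread, which may be technical.

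Neutrophils are short-lived phagocytes that leave the bone marrow, circulate in blood and enter tissues. The lung holds a large marginated pool in its capillaries, and the spleen holds neutrophils in its red pulp and around the marginal zone, next to B cells. NF-kappaB is a transcription factor that is kept in the cytoplasm by inhibitor proteins until a stimulus has them degraded, after which it switches on cytokines, chemokines and its own inhibitors. Immediate early genes such as the Fos, Jun, Egr and Nr4a families are transcribed within minutes of a stimulus without new protein synthesis.

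The deposited values are estimated read counts scaled to the size of each library and not divided by gene length, and they are called scaled counts here. A level can therefore be compared between libraries for the same gene, but not between genes. Estimated counts totalled 2940000, 10800000 and 9380000 in Lung replicates 1, 2 and 3, against 10000000, 12100000 and 8720000 in Spleen. A library's lowest value stands for 0 reads and was 0.131, 0.0397 and 0.0561 in Lung, against 0.0386, 0.0364 and 0.0473 in Spleen. Mitochondrially encoded genes took 1.93% to 2.87% of the estimated counts in Lung and 0.692% to 1.15% in Spleen. The 3 Lung libraries differed more among themselves (root mean square log2 difference 1.33 to 1.68 per gene) than the 3 Spleen libraries did (0.809 to 1.16), and a Lung library differed from a Spleen library by 1.49 to 2.08. Lung replicate 1, which had the fewest reads, lay farthest from Spleen.

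Of 13203 genes tested with limma, 1273 passed at an adjusted p of 0.05, which is 9.64% of those tested. In Lung 978 genes were higher (7.41%) and 295 were lower (2.23%). Groups did not overlap for 1271 of the 1273 genes that passed, so a lack of overlap adds little to a call. The median absolute log2 difference was 3.38 among the genes that were higher and 2.27 among those that were lower, and 632 against 53 of them differed by at least 3 on the log2 scale. All differences are on the log2(scaled count + 1) scale, which understates the change of genes with low values. The median difference over all tested genes was -0.13. The number passing depended on single libraries, with 639 without Lung replicate 2, 1995 without Lung replicate 3, 623 without Spleen replicate 1, 633 without Spleen replicate 2 and 746 without Spleen replicate 3. When limma estimated a weight for each library, 4466 genes passed and 51.3% of them were higher in Lung, against 76.8% in the unweighted fit. Of the 978 genes higher in Lung, 429 passed without each of the 6 libraries in turn, as did 27 of the 295 lower genes.

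**Figure D1:**
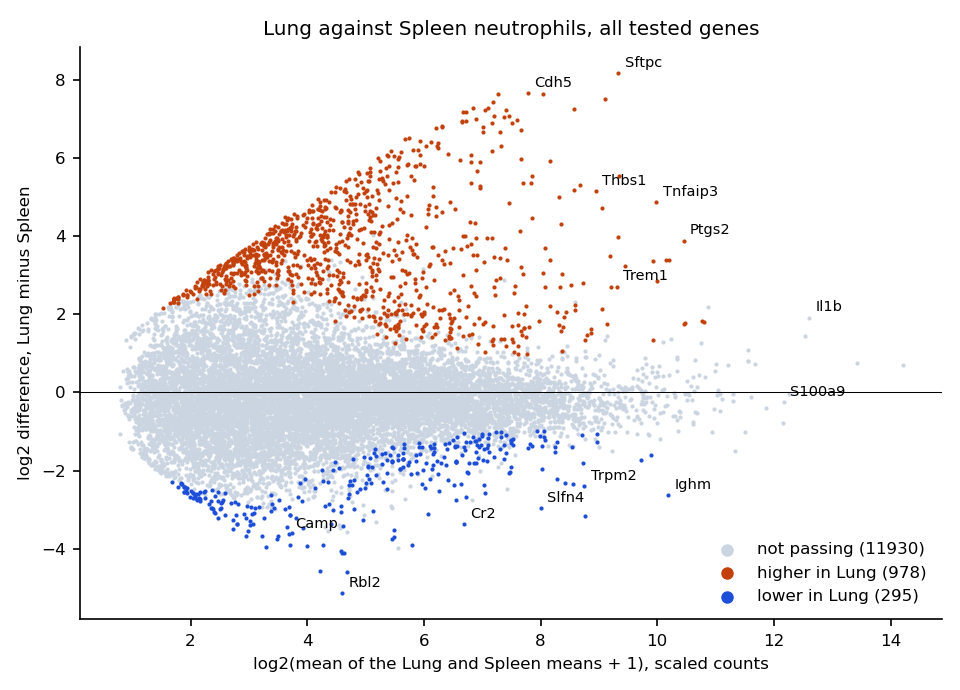
Each point is 1 of 13203 genes, with the log2 difference of Lung minus Spleen on the vertical axis against the log2 of the mean level on the horizontal axis, in scaled counts. The 978 genes higher in Lung (orange) reach a difference of 8.17 (Sftpc), the 295 lower genes (blue) reach -5.13 (Rbl2), and grey points did not pass.

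The sorted cells carried the transcripts that define neutrophils in both tissues. Csf3r, the receptor for the growth factor G-CSF, had 971, 1890 and 3230 scaled counts in Lung and 3710, 4860 and 2690 in Spleen. S100a9, a calcium-binding alarmin that fills neutrophil cytoplasm, had 2390, 3420 and 7490 in Lung and 3480, 5190 and 5720 in Spleen. Cxcr2, the receptor for neutrophil-attracting chemokines, had 356, 900 and 1700 in Lung and 1360, 1850 and 1710 in Spleen. The ranges of the tissues overlapped for all 3 genes, and none passed, with log2 differences of -1.01 (Csf3r), -0.25 (S100a9) and -0.99 (Cxcr2). Ly6g, the sorting antigen, had 37.2, 20.1 and 19.9 in Lung and 7.61, 12.0 and 23.3 in Spleen, a log2 difference of 0.88 ± 0.56 (SE, n = 3 each, limma adjusted p = 0.389). It was lower in all 6 of these libraries than in Blood (69.3 to 237) and BM (291 to 566).

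Of the 29 neutrophil identity genes tested (30 were listed), 1 was higher and 1 was lower in Lung, beside 7.41% higher and 2.23% lower over all genes. The median difference was -0.27, against -0.13 over all genes. Trem1, a receptor that amplifies inflammatory signals in myeloid cells, rose, and Slfn4, a myeloid member of the interferon-inducible Schlafen family, fell. The list had nearly the same order of Lung libraries throughout, since 28 of the 29 genes were highest in replicate 3 and 26 were lowest in replicate 1. Summed over the list, Lung had 11500, 19000 and 34600 scaled counts in replicates 1, 2 and 3, and Spleen had 23600, 30100 and 26200, against 46300 to 51200 in Blood. Without Lung replicate 3, Csf3r (log2 difference -1.43, adjusted p = 0.0433) and Cxcr2 (-1.52, adjusted p = 0.0312) passed as lower in Lung. The other sorting antigens and neutrophil genes chosen for report did not pass, with log2 differences of -0.52 (Itgam, the CD11b chain), -0.79 (Ptprc, CD45), -0.50 (S100a8) and 0.28 (Cxcr4, the receptor for the bone marrow chemokine Cxcl12).

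Of the lists examined, fibroblast, endothelial and lung epithelial markers had the highest medians. All 27 tested endothelial markers were higher in Lung (30 were listed and 3 were too low to test), against 7.41% of all genes, with a median difference of 4.85. All 16 tested fibroblast markers (18 listed) and 18 of 24 tested lung epithelial markers (25 listed) were higher as well, with medians of 5.28 and 3.67. Without each of the 6 libraries in turn, 23 endothelial, 14 fibroblast and 10 epithelial markers passed. Cdh5, the adhesion protein of endothelial junctions, had 698, 467 and 153 scaled counts in Lung and 1.51, 0.691 and 0.426 in Spleen (log2 difference 7.66 ± 0.57, adjusted p = 1.31e-05). Sftpc, which encodes a surfactant protein of alveolar type 2 cells, had 2310, 1350 and 205 in Lung and 2.13, 2.36 and 1.56 in Spleen (8.17 ± 0.68, adjusted p = 1.67e-05). Bgn, a matrix proteoglycan of fibroblasts, had 618, 414 and 120 in Lung and 1.78, 2.20 and 0.817 in Spleen (6.96 ± 0.58, adjusted p = 1.67e-05). For each of the 3 genes, every Lung library was above every Spleen library, and replicate 1 was highest and replicate 3 lowest within Lung. In bulk libraries a different number of cells of a type and a different amount of RNA per cell cannot be told apart.

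The summed endothelial markers were 9160, 6190 and 2700 scaled counts in Lung replicates 1, 2 and 3, and 159, 120 and 177 in Spleen. Lung epithelial markers summed to 4850, 3450 and 1260 in Lung and to 105, 120 and 142 in Spleen, and fibroblast markers to 3630, 2360 and 668 in Lung and to 60.5, 57.1 and 54.5 in Spleen. Of the listed markers, 3 endothelial (Sox17, Sox18 and Robo4), 3 epithelial (Krt8, Krt18 and Foxj1) and 2 fibroblast genes (Tcf21 and Fbln1) had 0 reads in every Spleen library, and none had 0 reads in every Lung library. All 3 sums ran opposite to the neutrophil identity genes across the Lung libraries. Of the 978 genes higher in Lung, 600 were highest in Lung replicate 1, 276 in replicate 2 and 102 in replicate 3, while all tested genes split into 4531, 3943 and 4729. The part that other cells play in the genes described below was not tested, and the order of the Lung libraries is given beside them.

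**Figure D2:**
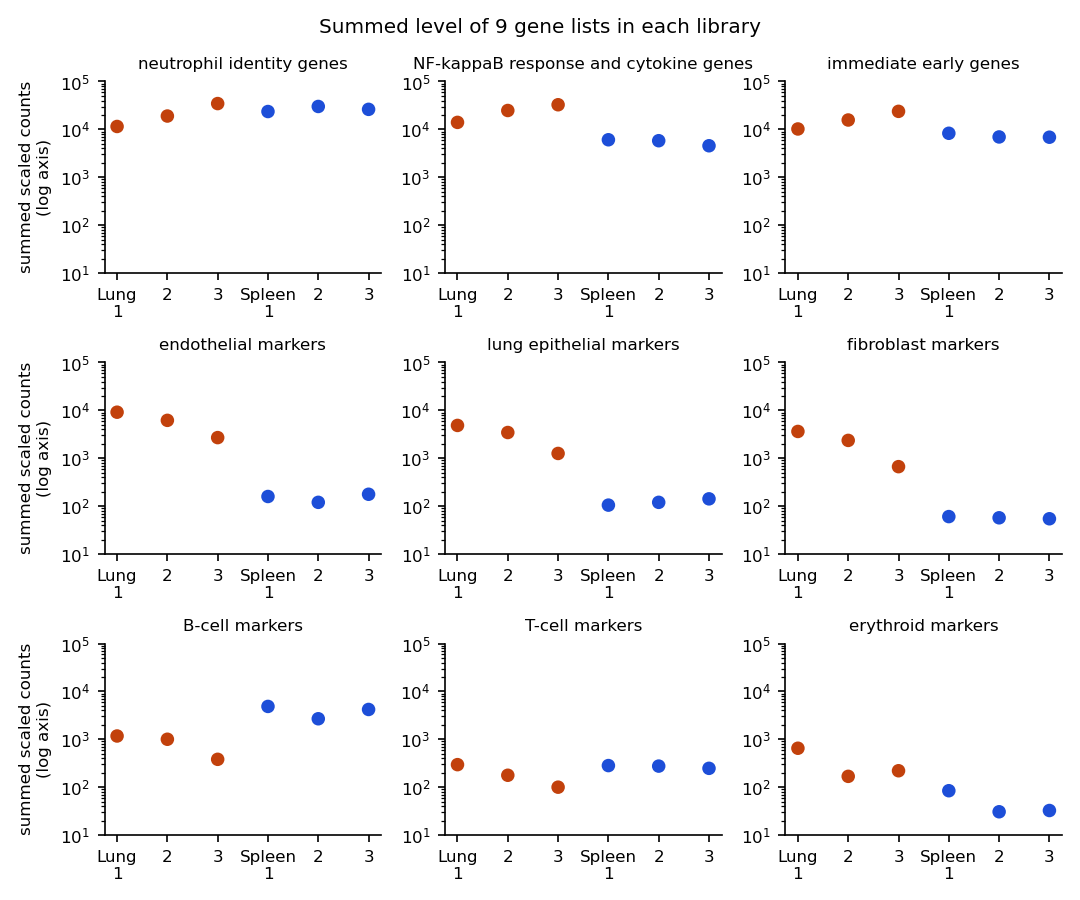
Each panel gives the summed scaled counts (log axis) of a gene list in Lung replicates 1 to 3 (orange) and Spleen replicates 1 to 3 (blue). Within Lung, the endothelial, lung epithelial and fibroblast sums are highest in replicate 1, whereas neutrophil identity, NF-kappaB and immediate early sums are highest in replicate 3.

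The 12 protein-coding genes with the largest rise outside the marker lists had the same pattern. They were Fmo2 and Cyp4b1, enzymes of oxidative drug metabolism abundant in lung, Podxl, Igfbp5, Sparcl1, Scn7a, Tjp1, a tight junction protein, Aqp1, the water channel of capillary endothelium, Pakap, the caveolar proteins Cav2 and Cavin2, and Aldh1a1, a retinaldehyde dehydrogenase. Fmo2 had 473, 328 and 123 scaled counts in Lung and 0.270, 0.400 and 0.426 in Spleen, a log2 difference of 7.62 ± 0.58 (adjusted p = 1.31e-05). The others differed by 6.75 (Aldh1a1) to 7.27 (Cyp4b1), and each of the 12 was highest in Lung replicate 1 and lowest in Lung replicate 3. Pakap overlaps Akap2 and Palm2 on the same strand, so its reads may be shared with theirs.

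To look at genes also present outside these tissues, the test was read separately for 3658 genes. Each had at least 20 scaled counts in every BM and Blood library, and none of these libraries entered the fit. Which cells carried these genes was not tested. Of the 3658 genes, 90 were higher in Lung (2.46%) and 137 were lower (3.75%). Among the other 9545 genes, 888 were higher (9.30%) and 158 were lower (1.66%). The 90 higher genes were spread over the Lung libraries, with 37 highest in replicate 1, 22 in replicate 2 and 31 in replicate 3. The 12 with the largest rise were Acvrl1, Thbs1, Tnfaip3, Ptgs2, Chil3, Ctnna1, Nfkbiz, Sptbn1, Ets2, Ctsl, Nfkbia and Ifrd1, of which Acvrl1, an endothelial receptor kinase of the BMP family, Chil3, Ctnna1, Sptbn1 and Ctsl were highest in Lung replicate 1.

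The NF-kappaB response list, which also holds cytokines, was shifted upwards in Lung. Of 40 tested (43 were listed), 17 rose and none fell, against 7.41% higher and 2.23% lower over all genes, and the median difference was 1.42, against -0.13. Like the other lists, it was chosen with earlier results of these data known, so its counts are a description. The list's median stayed between 1.32 and 1.78 under the scaling and weighting alternatives. Of the 17, 12 passed without each of the 6 libraries in turn. Summed over the list, Lung had 14000, 24800 and 32700 scaled counts, and Spleen had 6070, 5800 and 4550.

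The feedback inhibitors of the pathway were among the clearest differences. Tnfaip3, the ubiquitin-editing enzyme A20 that shuts NF-kappaB signalling off, had 1330, 2520 and 2040 scaled counts in Lung and 81.0, 57.0 and 56.4 in Spleen. Nfkbia, the inhibitor I-kappaB-alpha, had 824, 1550 and 1410 in Lung and 147, 120 and 118 in Spleen. Nfkbiz, the nuclear co-regulator I-kappaB-zeta, had 1410, 2780 and 2230 in Lung and 252, 230 and 128 in Spleen. In each case all Lung libraries were above all Spleen libraries, with replicate 2 highest and replicate 1 lowest within Lung. The endothelial sum was highest in replicate 1, and which cells these transcripts came from was not tested. The log2 differences were 4.87 ± 0.33 for Tnfaip3 (adjusted p = 1.19e-05), 3.24 ± 0.33 for Nfkbia (adjusted p = 7.35e-05) and 3.40 ± 0.38 for Nfkbiz (adjusted p = 1.75e-04). All 3 passed under each of the 19 alternatives. Tnfaip3 lies on the minus strand of chromosome 10 (19000910 to 19015657, mm10) and Nfkbia on the minus strand of chromosome 12 (55489410 to 55492647).

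Among secreted mediators and enzymes, Il1a, the alarmin interleukin-1 alpha, had 72.5, 89.8 and 34.0 scaled counts in Lung and 0.116, 0.109 and 0.236 in Spleen, a log2 difference of 5.74 ± 0.71 (adjusted p = 3.55e-04). Ptgs2, the prostaglandin-forming enzyme COX-2, had 1250, 2810 and 3790 in Lung and 345, 111 and 107 in Spleen (3.88 ± 0.51, adjusted p = 5.47e-04). Cxcl2, a chemokine that binds Cxcr2, had 435, 551 and 1200 in Lung and 56.6, 21.1 and 3.83 in Spleen (5.17 ± 0.70, adjusted p = 6.53e-04). None of the 3 had overlapping groups. Ccrl2, an atypical receptor that presents the attractant chemerin, had 476, 1180 and 1400 in Lung and 62.9, 15.2 and 40.5 in Spleen (4.72 ± 0.51, adjusted p = 1.17e-04). Within Lung, the scaled count of Ptgs2, Cxcl2 and Ccrl2 was highest in replicate 3, and that of Il1a was lowest there.

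The other members that rose were Nfkbid, Osm, Sod2, Il23a, Cxcl1, Icam1, Tnf, Nfkbie, Marcksl1 and Ccl4, named after their values were seen. Their log2 differences ran from 1.42 (Nfkbie) to 4.05 (Il23a). Sod2, the mitochondrial superoxide dismutase, had 147, 97.1 and 62.5 in Lung and 16.3, 14.1 and 21 in Spleen, and, like Il23a and Icam1, was highest in Lung replicate 1. Icam1, Tnf, Nfkbie, Marcksl1 and Ccl4 each lost their call without at least 1 library, Icam1 and Tnf only without Lung replicate 2 (adjusted p = 0.0503 and 0.0863). Il1b, the main secreted cytokine of activated neutrophils, had 5330, 9250 and 15300 in Lung and 3010, 2790 and 1680 in Spleen. Every Lung library was above every Spleen library, as for 14.4% of all tested genes, but the difference of 1.91 ± 0.60 did not pass (adjusted p = 0.0646). It passed without Lung replicate 1 (2.3, adjusted p = 0.0239) and without Lung replicate 3 (1.54, adjusted p = 0.0378).

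RefSeq start-site windows (GRCm38.p6, 250 bases before and 50 from the start on) were searched on both strands for a kappaB-like motif of 10 letters, which starts with a run of G, holds a pair of T in its centre and ends with a pair of C. It was present in 4.79% of all 32851 windows, in 5.38% of the windows of tested genes and in 5.30% of those of genes higher in Lung. Of the 17 NF-kappaB list genes that rose, 13 had windows, 18 in all, and 6 windows of 6 genes held the motif. The 4 windows shown were chosen after the search because they held it, and they belong to 2 inhibitors and 2 chemokines that rose in Lung. Nfkbia is read on the minus strand at chr12:55492598-55492897, Tnfaip3 on the minus strand at chr10:19015361-19015660, Cxcl1 on the plus strand at chr5:90890995-90891294 and Cxcl2 on the plus strand at chr5:90903649-90903948. Capitals mark the match, which may lie on either strand, and each sequence runs 5′ to 3′ along its gene.
Nfkbia: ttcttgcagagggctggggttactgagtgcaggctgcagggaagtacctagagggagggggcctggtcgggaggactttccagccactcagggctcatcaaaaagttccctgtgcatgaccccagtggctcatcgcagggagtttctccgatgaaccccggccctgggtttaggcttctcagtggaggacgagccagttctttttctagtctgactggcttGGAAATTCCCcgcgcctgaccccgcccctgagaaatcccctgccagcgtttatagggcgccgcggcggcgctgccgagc
Tnfaip3: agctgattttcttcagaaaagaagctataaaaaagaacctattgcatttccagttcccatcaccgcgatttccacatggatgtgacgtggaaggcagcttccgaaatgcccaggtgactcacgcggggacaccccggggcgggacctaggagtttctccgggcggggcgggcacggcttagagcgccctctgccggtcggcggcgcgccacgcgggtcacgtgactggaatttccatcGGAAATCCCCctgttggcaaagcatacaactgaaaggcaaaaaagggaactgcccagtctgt
Cxcl1: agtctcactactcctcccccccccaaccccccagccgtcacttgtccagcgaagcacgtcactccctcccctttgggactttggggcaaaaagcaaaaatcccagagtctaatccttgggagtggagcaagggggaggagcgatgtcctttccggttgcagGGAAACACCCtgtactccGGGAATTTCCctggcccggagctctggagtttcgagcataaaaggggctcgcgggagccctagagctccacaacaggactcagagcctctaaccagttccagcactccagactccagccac
Cxcl2: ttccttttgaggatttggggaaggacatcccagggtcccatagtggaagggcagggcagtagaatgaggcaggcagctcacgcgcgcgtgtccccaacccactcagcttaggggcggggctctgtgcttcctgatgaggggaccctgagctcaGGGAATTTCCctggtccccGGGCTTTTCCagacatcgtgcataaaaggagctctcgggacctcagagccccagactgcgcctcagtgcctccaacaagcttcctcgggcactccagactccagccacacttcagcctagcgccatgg
The match began 29 bases before the start in Nfkbia and 12 bases before it in Tnfaip3. Cxcl1 and Cxcl2, neighbouring genes on chromosome 5, each held 2 matches, and the letters GGGAATTTCC occurred in both. A match describes the letters in a window and is not evidence of binding.

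Immediate early genes formed the other large group. Of 30 tested, 16 rose and 1 fell, against 7.41% higher and 2.23% lower over all genes, with a median of 1.84 (1.74 to 2.02 under the scaling and weighting alternatives). Their sum was 10200, 15700 and 23800 in Lung and 8290, 6950 and 6860 in Spleen. Of the 16, 12 were highest in Lung replicate 3 and 13 lowest in Lung replicate 1. The neutrophil identity sum had this order and the endothelial sum the reverse, and which cells these transcripts came from was not tested.

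The orphan nuclear receptor Nr4a3 had 149, 226 and 351 scaled counts in Lung and 3.83, 6.44 and 4.59 in Spleen, a log2 difference of 5.29 ± 0.43 (adjusted p = 1.32e-05). Nr4a1, its relative and a marker of recent receptor signalling in lymphocytes, had 615, 1360 and 1640 in Lung and 125, 59.4 and 45.7 in Spleen (3.97 ± 0.44, adjusted p = 1.50e-04). Fosb, which pairs with Jun proteins to form AP-1, had 704, 959 and 1560 in Lung and 123, 74.4 and 80.3 in Spleen (3.48 ± 0.35, adjusted p = 7.93e-05). The lowest Lung library was above the highest Spleen library for all 3. Atf3, a stress-induced transcription factor, had 157, 202 and 409 in Lung and 32.1, 35.4 and 38.5 in Spleen (2.70 ± 0.37, adjusted p = 7.20e-04). Csrnp1, a nuclear protein named for its serine and cysteine content, had 110, 248 and 449 in Lung and 20.5, 4.96 and 25.3 in Spleen (3.95 ± 0.59, adjusted p = 0.00127). All 5 genes passed under each of the 19 alternatives.

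The remaining members that rose, named after their values were seen, were Maff, Gadd45b, Ppp1r15a, Egr1, Dusp2, Dusp5, Btg2, Fosl1, Jun, Klf4 and Nr4a2. Egr1, a zinc-finger factor induced by growth factor signalling, had 720, 592 and 834 in Lung and 241, 117 and 36.8 in Spleen, a log2 difference of 2.79. Jun and Klf4 were highest in Lung replicate 1, and Klf4, which endothelium also expresses, had 178, 112 and 20.3 in Lung and 12.6, 11.6 and 9.65 in Spleen. Fosl1 had 0 reads in every Spleen library and was at least 39.7-fold higher in Lung, taking 3 counts per library as the floor. Fos itself did not pass, with 711, 1120 and 2130 in Lung and 1090, 634 and 612 in Spleen (0.67, adjusted p = 0.409), and Junb did not either (0.71, adjusted p = 0.404). Rhob, a small GTPase of endosomes that is also quickly induced, was the member that fell, with 75.1, 98.1 and 71.6 in Lung and 179, 157 and 179 in Spleen (-1.07, adjusted p = 0.035). Btg2, Dusp2, Fosl1, Jun, Klf4, Nr4a2 and Rhob lost their call without at least 1 library, with adjusted p up to 0.162. The motif TGACGTCA, read by the CREB and ATF family, was present in 3 of 19 windows of the genes that rose, in 1.79% of all windows and in 2.96% of those of tested genes. The AP-1 motif TGANTCA was present in 1 of the 19 windows, in 7.81% of all windows and in 5.44% of those of tested genes.

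**Figure D3:**
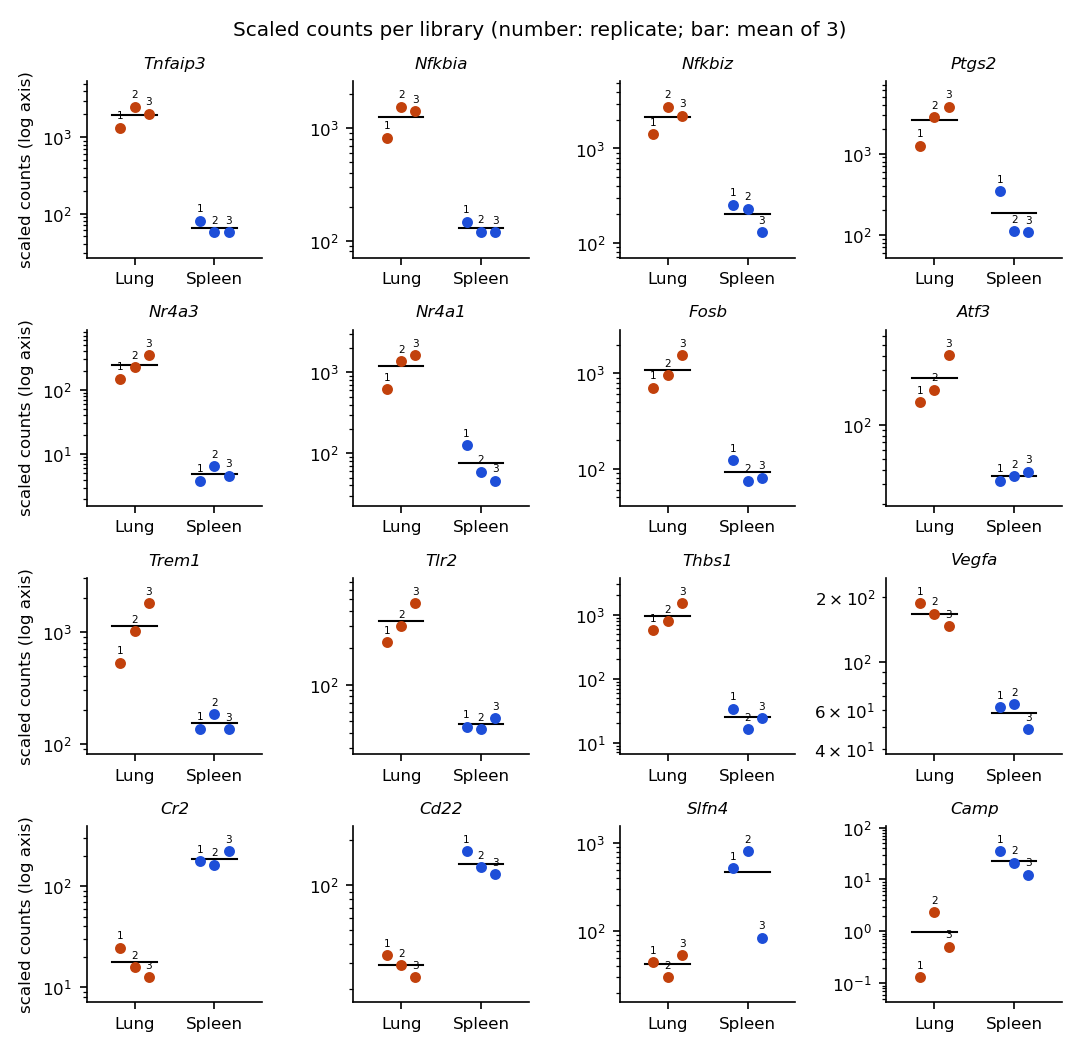
Scaled counts (log axes, which differ between panels) of 16 genes, with Lung (orange) left of Spleen (blue), a numbered point per replicate and a bar at the mean of 3. The groups do not overlap in any panel, and Trem1, Tlr2, Nr4a3 and Thbs1 are lowest in Lung replicate 1 and highest in Lung replicate 3.

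Stress and clock genes were higher in part. Of 19 tested heat shock genes, 6 rose, none fell, and the median was 0.63, beside 7.41% higher, 2.23% lower and a median of -0.13 over all genes. The list's calls ran from 2 to 11 over the alternatives. The inducible chaperone gene Hspa1a had 102, 72.9 and 39.4 scaled counts in Lung and 3.57, 0.781 and 0.356 in Spleen (4.92 ± 0.70, adjusted p = 8.55e-04). Its near-identical neighbour Hspa1b had 53.3, 82.4 and 59.0 in Lung and 4.46, 3.76 and 14 in Spleen (3.15 ± 0.55, adjusted p = 0.00336), and reads may be shared between the pair. Both had non-overlapping groups and passed under all 19 alternatives. Bag3, Dnajb4, Hspb1 and Hsp90aa1 were the others that rose, and Hspb1, with 0 reads in each Spleen library, was at least 42.4-fold higher in Lung. Dnajb4 lost its call without Lung replicate 2 (adjusted p = 0.0789), and Hsp90aa1 and Hspb1 lost theirs without 4 or more libraries in turn.

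Of 15 tested clock genes, 4 rose, none fell, and the median was 0.99, beside the same 7.41%, 2.23% and -0.13 over all genes. The list's calls ran from 0 to 9 over the alternatives. Bhlhe40, a transcriptional repressor, had 147, 261 and 173 scaled counts in Lung and 55.1, 47.2 and 47.3 in Spleen (1.90 ± 0.32, adjusted p = 0.00261), with every Lung library above every Spleen library. Per1, which is also an immediate early target of cyclic AMP, had 108, 273 and 665 in Lung and 87.8, 52.9 and 63.7 in Spleen (2.0 ± 0.52, adjusted p = 0.0303). The nuclear receptors Rora and Nr1d1 rose too (3.34 and 3.07), but these and Per1 lost their call without some libraries, with adjusted p up to 0.0833 (Rora), 0.116 (Per1) and 0.144 (Nr1d1). Clock, the core activator, had 86.4, 52.5 and 47.8 in Lung and 24.3, 19.2 and 29.0 in Spleen, a difference of 1.3 that did not pass (adjusted p = 0.0583). The labels used here give no time of day.

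Receptors for microbial products differed gene by gene. Of 34 tested, 4 rose and 1 fell, not far from the 7.41% and 2.23% over all genes, and the median was -0.04. Cd14, the co-receptor for lipopolysaccharide, had 253, 344 and 540 scaled counts in Lung and 20.7, 25.1 and 14.9 in Spleen (4.12 ± 0.36, adjusted p = 2.30e-05). Tlr2, which senses bacterial lipopeptides, had 223, 303 and 466 in Lung and 45.1, 43.1 and 53.1 in Spleen (2.73 ± 0.33, adjusted p = 2.98e-04). Trem1 had 529, 1020 and 1800 in Lung and 137, 185 and 136 in Spleen (2.71 ± 0.41, adjusted p = 0.00134). All 3 were highest in Lung replicate 3 and lowest in replicate 1, none had overlapping groups, and all passed under each of the 19 alternatives. Nlrp3, the inflammasome sensor, rose by less, with 404, 716 and 986 in Lung and 227, 278 and 187 in Spleen (1.53 ± 0.36, adjusted p = 0.019). Tlr1, the partner of Tlr2, fell, with 2.76, 10.2 and 5.09 in Lung and 32.6, 20.7 and 38.8 in Spleen (-2.27 ± 0.63, adjusted p = 0.0391). Nlrp3 passed without 3 of the 6 libraries in turn and Tlr1 without 2, and their adjusted p otherwise reached 0.103 and 0.185. Tlr4, which signals with Cd14, had 74.1, 96.1 and 203 in Lung and 117, 150 and 167 in Spleen and did not pass (-0.34).

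Chemokine receptors showed no common direction. Of 16 tested, 2 rose (Ccrl2 and Ackr3, a scavenger of Cxcl12), 1 fell (Ccr3), and the median was -0.35. With 16 genes these counts are close to the 7.41% and 2.23% over all genes. Ackr3, which endothelium also expresses, had 35.2, 22.8 and 7.80 scaled counts in Lung and 0.734, 0.618 and 3.17 in Spleen (3.11 ± 0.82, adjusted p = 0.0317). Ccr3, an eotaxin receptor known from eosinophils, had 0.131, 4.80 and 2.19 in Lung and 27.7, 11.3 and 24.7 in Spleen (-2.92 ± 0.82, adjusted p = 0.0418). Groups did not overlap for either gene, yet Ackr3 passed without 2 of the 6 libraries in turn and Ccr3 without 1. Cxcr5, which guides B cells to follicles, had 0.915, 21.9 and 7.13 in Lung and 31.7, 30.7 and 59.5 in Spleen (-2.49, adjusted p = 0.0703).

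Of 20 tested adhesion molecules, 5 rose and none fell, beside 7.41% higher and 2.23% lower over all genes. The list median of -0.13 was the same as that over all genes. The 5 that rose were F11r, a junctional adhesion molecule, the integrin chains Itgb1 and Itga6, Icam1 and the tetraspanin Cd9. F11r had 71.5, 62.8 and 24.8 scaled counts in Lung and 3.94, 0.346 and 0.0473 in Spleen (4.69 ± 0.80, adjusted p = 0.00289). Cd9 had 400, 458 and 469 in Lung and 196, 225 and 218 in Spleen (1.05 ± 0.28, adjusted p = 0.0324) and passed without 2 of the 6 libraries in turn. Of the 5, Cd9 was highest in Lung replicate 3 and the other 4 in replicate 1, as the endothelial markers were.

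Among factors that act on blood vessels, 7 of 16 tested rose, none fell, and the median was 1.3 (22 were listed and 6 were too low to test). Over all genes 7.41% were higher, 2.23% were lower and the median was -0.13. Thbs1, which encodes thrombospondin-1, a matrix protein known to inhibit angiogenesis, had 574, 786 and 1510 scaled counts in Lung and 33.8, 16.3 and 24.3 in Spleen (5.15 ± 0.39, adjusted p = 1.31e-05). Vegfa, the main vascular growth factor, had 187, 167 and 147 in Lung and 62.1, 63.9 and 49.2 in Spleen (1.5 ± 0.3, adjusted p = 0.0071). Nrp1, a co-receptor for Vegfa that endothelium expresses, had 327, 240 and 95.5 in Lung and 5.26, 1.18 and 0.804 in Spleen (6.08 ± 0.61, adjusted p = 7.35e-05). Every Lung library was above every Spleen library for all 3, but Thbs1 was highest in Lung replicate 3, whereas Vegfa and Nrp1 were highest in replicate 1. The ligands Apln, Pdgfb, Angpt1 and Hbegf also rose, by 3.07 (Hbegf) to 4.13 (Pdgfb), and all 4 were lowest in Lung replicate 3 except Apln, which was lowest in replicate 2. Angpt1 and Hbegf lost their call without at least 1 library (adjusted p up to 0.0797 and 0.193). Thbs1 lies on chromosome 2 (118111876 to 118127133, plus strand) and Vegfa on chromosome 17 (46016993 to 46032369, minus strand). Mmp9, the gelatinase of neutrophil granules, had 675, 1310 and 1410 in Lung and 820, 1290 and 1410 in Spleen and did not pass (-0.08).

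Granule genes mostly overlapped between the tissues, as did most tested genes, of which 27.9% did not overlap. Of 26 tested specific and gelatinase granule genes, 1 rose (Chil3) and 1 fell (Camp), beside 7.41% higher and 2.23% lower over all genes. The list median was -0.26, against -0.13 over all genes. Camp, the antimicrobial cathelicidin, had 0.131, 2.34 and 0.505 scaled counts in Lung and 34.7, 21.1 and 12.3 in Spleen (-3.62 ± 0.79, adjusted p = 0.0122), and Lung replicate 1 had 0 reads of it. It lost its call without Spleen replicate 1 (adjusted p = 0.0855) and without Spleen replicate 2 (adjusted p = 0.0637). Ngp, a neutrophil granule protein, had 7.19, 9.64 and 18.8 in Lung and 101, 31.0 and 21.8 in Spleen (-1.81, adjusted p = 0.0878). It was below Spleen in every Lung library, as were 13.5% of all tested genes. Ltf, lactoferrin, had 45.1, 15 and 8.03 in Lung and 96.4, 56.5 and 33.8 in Spleen (-1.63, adjusted p = 0.111). Ltf passed without Lung replicate 1 (-2.27, adjusted p = 0.0221) and Ngp without Lung replicate 3 (-2.17, adjusted p = 0.0491). Chil3, the chitinase-like protein Ym1 of immature neutrophils and alveolar macrophages, had 914, 482 and 129 in Lung and 40.3, 17.9 and 33.8 in Spleen (3.68 ± 0.58, adjusted p = 0.00172). The alveolar macrophage sum was 500, 353 and 173 in Lung and 89.9, 89.6 and 57.7 in Spleen. Within Lung it had the order of Chil3, as did the endothelial, epithelial and fibroblast sums. Of 8 tested alveolar macrophage markers 2 passed, neither of them without each of the 6 libraries in turn, and the source of Chil3 was not tested. None of the 7 tested azurophil granule genes passed in limma, none had an unadjusted p under 0.05, and Mpo, Elane and Prtn3 were too low to test.

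Further genes with at least 20 scaled counts in every BM and Blood library also rose. Ets2, a transcription factor downstream of Ras signalling, had 889, 1540 and 2950 scaled counts in Lung and 159, 124 and 185 in Spleen (3.36 ± 0.41, adjusted p = 3.39e-04). Ctsl, the lysosomal protease cathepsin L, had 273, 239 and 199 in Lung and 17.8, 26.6 and 23.2 in Spleen (3.34 ± 0.32, adjusted p = 4.93e-05). Ifrd1, an interferon-related regulator, had 102, 249 and 501 in Lung and 47.0, 23.1 and 24.9 in Spleen (2.91 ± 0.51, adjusted p = 0.0033), and an antisense gene overlaps it. These genes were chosen among those whose groups did not overlap. Ets2 and Ifrd1 were highest in Lung replicate 3, and Ctsl ran from 199 to 273 over the Lung libraries. Sptbn1, a spectrin of the membrane skeleton, had 2970, 2310 and 995 in Lung and 204, 163 and 173 in Spleen (3.40 ± 0.40, adjusted p = 2.57e-04), in the order of the endothelial sum.

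B-cell markers had the most members lower in Lung of the lists examined. Of 17 tested, 11 fell and none rose, against 2.23% lower over all genes, and the median difference was -2.23 (-2.31 to -1.42 under the scaling and weighting alternatives). Their sum was 1170, 1000 and 381 scaled counts in Lung and 4850, 2680 and 4190 in Spleen. Cr2, the complement receptor CD21, had 24.7, 15.8 and 12.6 in Lung and 175, 163 and 220 in Spleen (-3.36 ± 0.36, adjusted p = 1.06e-04). Cd22, an inhibitory lectin of the B-cell receptor complex, had 33.9, 28.9 and 24 in Lung and 168, 132 and 118 in Spleen (-2.23 ± 0.33, adjusted p = 0.00111). Ighm, the constant region of IgM, had 591, 305 and 151 in Lung and 2850, 1190 and 1900 in Spleen (-2.62 ± 0.49, adjusted p = 0.00529). All Lung libraries were below all Spleen libraries for these genes, and all 3 passed without each of the 6 libraries in turn. Pax5, the transcription factor of B-cell identity, also did (-2.03), whereas Blnk, Bank1, Blk, Ms4a1, Cd79a and Fcer2a lost their call without at least 1 library (adjusted p up to 0.259).

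The protein-coding genes with the largest fall outside the marker lists included some known from B cells. Pou2af1, a B-cell transcription co-activator, fell by 3.51 and Ly9, a lymphocyte receptor of the SLAM family, by 3.76. Rbl2, the retinoblastoma relative p130, had the largest fall, with 0.131, 0.0397 and 0.481 scaled counts in Lung and 20.2, 48.1 and 71.1 in Spleen (-5.13 ± 0.76, adjusted p = 0.00119), and Lung replicates 1 and 2 had 0 reads of it. The genes named here were chosen among those whose groups did not overlap, and Rbl2 passed under each of the 19 alternatives. Ptger2, a receptor for prostaglandin E2, had 0.915, 0.516 and 2.98 in Lung and 24.2, 26.7 and 54.3 in Spleen (-3.90 ± 0.73, adjusted p = 0.00543). Others were Zfp947, Cdh23, Lysmd1, Ccdc82, Camp, Mrps25 and Rad1. Mrps25 and Rad1 passed without 1 of the 6 libraries in turn, Ly9 without 2, Pou2af1 without 3, Lysmd1 and Camp without 4 and Ccdc82 without 5, with adjusted p up to 0.162. Rbl2, Mrps25, Ly9 and Cdh23 overlap a protein-coding gene on the opposite strand (Aktip, Nr2c2, Cd244a and Vsir), and use of strand in the counting is not stated, so their values are uncertain.

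Antigen presentation and the other lymphocyte lists followed. Of 15 tested MHC class II presentation genes, 3 fell and none rose, beside 2.23% lower and 7.41% higher over all genes. Their median of -0.52, against -0.13 over all genes, became 0.09 when limma weighted the libraries. The 3 were Ciita, the master activator of the class, and the accessory genes H2-Ob and H2-DMb2, and each lost its call without 4 of the 6 libraries in turn (adjusted p up to 0.211). Cd74, the invariant chain, had 948, 489 and 125 scaled counts in Lung and 538, 419 and 761 in Spleen and did not pass (-0.52). None of 19 T-cell markers and none of 7 natural killer cell markers passed in limma (3 and 0 had an unadjusted p under 0.05, and none passed with voom weights), with medians of -0.89 and 0.19. With library weights 3 T-cell markers and 1 natural killer cell marker were lower in Lung. T-cell markers summed to 295, 177 and 99.8 in Lung and to 282, 275 and 247 in Spleen. Of 7 plasma cell markers 2 fell and none rose, beside the same 2.23% and 7.41% over all genes, and the median was -2.54. Jchain, the joining chain of secreted IgM and IgA, fell (-2.58 ± 0.53, adjusted p = 0.00916) but lost its call without Lung replicate 2 (adjusted p = 0.0681) and without Spleen replicate 3 (adjusted p = 0.0559). The other was Mzb1 (-2.54, adjusted p = 0.0468), an immunoglobulin chaperone that lost its call whichever of the 6 libraries was left out.

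Among 14 tissue macrophage markers, 2 fell, none rose, and the median was -0.25, beside 2.23% lower, 7.41% higher and a median of -0.13 over all genes. Spic, the transcription factor of red pulp macrophages, had 0.436, 0.0397 and 0.141 scaled counts in Lung and 14.4, 12.8 and 6.17 in Spleen (-3.27 ± 0.73, adjusted p = 0.0133). Slc40a1, the iron exporter ferroportin that these macrophages use to recycle iron, had 187, 462 and 616 in Lung and 1040, 1360 and 1410 in Spleen (-1.74 ± 0.43, adjusted p = 0.0229). Neither gene had overlapping groups. Slc40a1 passed without 2 of the 6 libraries in turn and Spic without 3. The complement genes C1qa, C1qb and C1qc did not pass, and their groups overlapped. Summed over the list, Lung had 588 to 836 scaled counts and Spleen had 1320 to 1640, most of it Slc40a1. The sum was 1710 to 2020 in Blood, above every Spleen library. It was 970 to 1380 in BM and 1170 to 1330 in Intestine, both overlapping Spleen, and 652 to 1030 in Skin, below Spleen. A high sum was thus not particular to Spleen, and which cells carried Slc40a1 was not tested.

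Among the genes with at least 20 scaled counts in every BM and Blood library, those lower in Lung were led by Cdh23, Camp and Slfn4. Slfn4 had 44.6, 30.1 and 53.5 scaled counts in Lung and 524, 805 and 84.8 in Spleen (-2.96 ± 0.64, adjusted p = 0.0113). Spleen replicate 3 was far below the other Spleen libraries but above all of Lung, and the call was lost without Lung replicate 2 (adjusted p = 0.0806), Spleen replicate 1 (adjusted p = 0.0526) and, at the threshold, Spleen replicate 2 (adjusted p = 0.05). Trpm2, an oxidant-sensitive calcium channel, had 55.9, 132 and 264 in Lung and 784, 965 and 379 in Spleen (-2.39 ± 0.51, adjusted p = 0.0107), and lost its call without Lung replicate 2 (adjusted p = 0.0643). Cd46, a regulator of complement that in mice is best known from testis, had 1.70, 6.47 and 16.9 in Lung and 51.0, 37.3 and 39.0 in Spleen (-2.60 ± 0.67, adjusted p = 0.0298), and passed without 2 of the 6 libraries in turn (adjusted p otherwise up to 0.151). These genes too were chosen among those whose groups did not overlap. The rest of the 12 were Kcnj16, a potassium channel, Prickle3, Bola2, Gga3, a sorting adaptor of the Golgi, Ints6l, D1Ertd622e and 9930111J21Rik1, with differences from -2.78 (Kcnj16) to -2.31 (Gga3). Of these 7, only D1Ertd622e passed without each of the 6 libraries in turn. Prickle3, Bola2, Gga3 and 9930111J21Rik1 overlap other genes.

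The signalling feedback inhibitors moved both ways. Of 20 tested, 4 rose (Tnfaip3, Dusp2, Dusp5 and Cd200) and 2 fell, against 7.41% and 2.23% over all genes, and Cd200 passed without 2 of the 6 libraries in turn. Dusp6, a phosphatase of the kinase ERK, had 115, 84.0 and 121 scaled counts in Lung and 219, 259 and 276 in Spleen (-1.24 ± 0.29, adjusted p = 0.0177). Dusp5, a nuclear phosphatase of the same kinase, had 50.8, 66.7 and 136 in Lung and 12.9, 10.8 and 25.6 in Spleen (2.26 ± 0.48, adjusted p = 0.0105). The pair thus differed in sign, with groups that did not overlap for either gene, and Dusp6 passed without 2 of the 6 libraries in turn while Dusp5 passed without each. Rgs2, a brake on G-protein signalling, fell, with 282, 410 and 825 in Lung and 1130, 1570 and 1480 in Spleen (-1.59 ± 0.41, adjusted p = 0.0293), and passed without 1 of the 6. Dusp1, the most quickly induced of the family, had 854, 1390 and 3450 in Lung and 1390, 978 and 1360 in Spleen and did not pass (0.38).

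Several programmes showed no call at all. None of 32 type I interferon response genes, 26 glycolysis and hypoxia genes, 9 NADPH oxidase genes and 4 B-cell helper factors passed in limma, and their medians were -0.11, 0.03, -0.11 and -0.12, beside -0.13 over all genes. At an unadjusted p of 0.05 the counts were 3, 6, 2 and 0, and none passed with voom weights. With library weights 8 interferon, 8 glycolysis and 3 oxidase genes passed in 1 direction or the other. Bst2 and Ifi44, 2 interferon-induced genes, were above Spleen in every Lung library but did not pass (adjusted p = 0.0855 and 0.129). That position held for 2 of the 32 interferon genes, against 14.4% of all tested genes. The B-cell survival factors Tnfsf13b (BAFF) and Tnfsf13 (APRIL) had 29.1, 14.3 and 10.3 and 9.36, 6.66 and 0.0561 scaled counts in Lung, against 15.2, 8.04 and 23.8 and 4.6, 0.0364 and 0.0473 in Spleen. Neither passed (0.17 and 1.26). Of 32 tested cell cycle genes, Mki67, a proliferation marker, fell (-1.86 ± 0.44, adjusted p = 0.0185) and none rose. Over all genes 2.23% were lower and 7.41% higher. The median of the cell cycle genes was -0.75. Mki67 had 37.8, 52.5 and 18 in Lung and 153, 157 and 75.9 in Spleen, and lost its call without Spleen replicate 1 or 2 (adjusted p = 0.0987 and 0.0986).

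**Figure D4:**
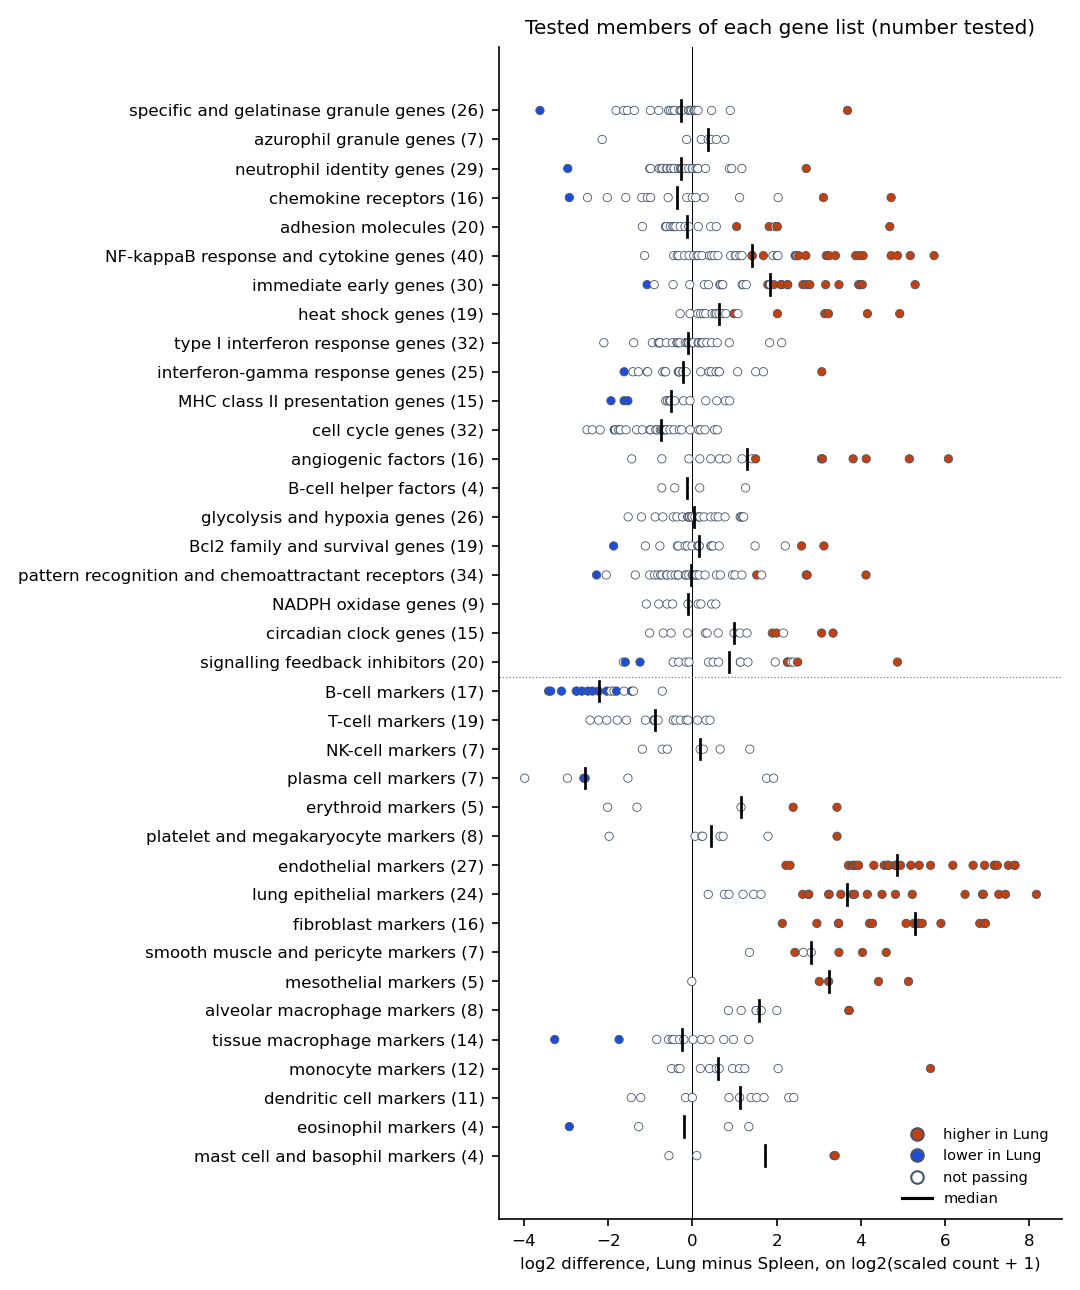
Each row is a gene list with the number of tested members, and each point is a member's log2 difference of Lung minus Spleen, filled where it passed (orange higher, blue lower), with a bar at the list median. Lists above the dotted line are gene programmes, whose source cells were not tested, and those below are markers of other cells. Endothelial, epithelial and fibroblast medians lie at 3.67 to 5.28, NF-kappaB and immediate early medians at 1.42 and 1.84, and the B-cell median at -2.23.

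The other 4 tissues place these levels, with no test made. Blood lay between Lung and Spleen or below both for most genes higher in Lung, since the Blood mean was between the 2 tissue means for 597 of the 978 genes, below both for 374 and above both for 7. For the 295 lower genes it was between for 170, above both for 79 and below both for 46. Tnfaip3 had 58.1, 44.5 and 53.1 scaled counts in Blood and 39.2, 23.9 and 22.1 in BM, at or below the range of Spleen, and 736, 1650 and 1010 in Skin, overlapping the range of Lung. Nr4a1 had 15.1 to 47.7 in Blood and 26.3 to 69.7 in BM, again overlapping or below Spleen, and 296 to 1040 in Skin. Intestine did not share the high level of Lung in these lists. Its NF-kappaB sum was 2340 to 3020 and its immediate early sum 2930 to 3420, both below every Spleen library. Vegfa had 48.8 to 71.5 in Blood and 34.1 to 74.6 in BM, within or close to the range of Spleen. Thbs1 differed from this order, with 38.9 to 59.0 in Blood but 226 to 285 in BM. Camp had 56.5, 93.6 and 252 in Blood and 2540, 3120 and 2760 in BM, so Lung had the lowest mean of these 4 tissues and Spleen the next lowest. Cr2 stayed at 13.1 or below in every Blood, BM, Intestine and Skin library, and Spleen, with 163 to 220, was above them all. Cdh5 stayed at 1.20 or below in Blood and BM but had 36.9, 187 and 113 in Intestine, which overlapped the range of Lung, and 1.40, 11.9 and 54.6 in Skin. The endothelial sum was 83.7 to 176 in Blood, 215 to 264 in BM, 557 to 1450 in Skin and 1970 to 5100 in Intestine, so that Intestine overlapped the range of Lung. The fibroblast sum was 9450 to 18100 in Intestine, above Lung, and 1830 to 6190 in Skin, overlapping Lung. It was 98.7 to 208 in Blood and 89.6 to 162 in BM. The lung epithelial sum was below every Lung library in all 4, with 870 to 1180 in Skin and 472 to 529 in Intestine. The B-cell sum was 132 to 229 in Blood, 238 to 882 in BM, 230 to 400 in Intestine and 188 to 756 in Skin, below Spleen in each.

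**Figure D5:**
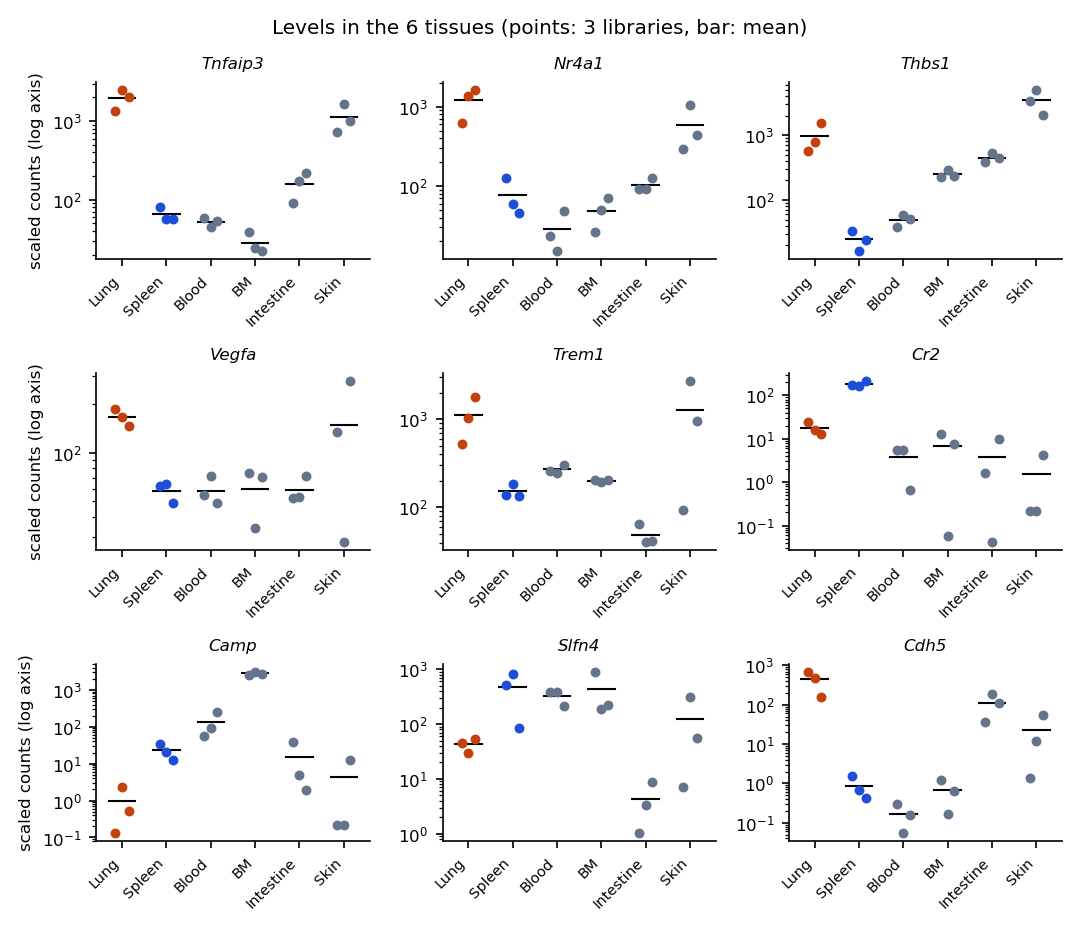
Scaled counts (log axes, which differ between panels) of 9 genes in the 3 libraries of each of 6 tissues, with a bar at the mean. Tnfaip3 and Nr4a1 are high in Lung and Skin and low in Spleen, Blood and BM, Cr2 is highest in Spleen, Cdh5 is high in Lung and Intestine, and Camp is highest in BM.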

How the data were processed

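Lung and Spleen neutrophils, 3 libraries each, were compared from the deposited table of 32328 genes. RNA was amplified with an Ovation Single Cell kit and read as 61-nucleotide single ends, per the labels' protocols. The submitters' processing notes name CASAVA, RSEM 1.3.1, limma and the mm10 build without their order. The table is named as TPM, but the values in the deposited file match a depth-scaled signal, (estimated count + 0.5) / (effective library size + 1) × 1e+06, with no gene length, so sums above 1e+06 occurred in 6 of 18 columns. Between 50.6% and 66.8% of recovered counts were whole (within 0.01), so no count test was used. Gene names came from GENCODE M21, which named 31899 IDs.

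Testing was limited to genes that reached 1 in 3 libraries or more of these 6, and was done on log2(value + 1) with limma 3.58.1 (R 4.3.3), 2 group means, 4 residual degrees of freedom, a trended prior and Benjamini-Hochberg adjustment at 0.05. Every adjusted p and SE in the text comes from this limma fit or from the alternative named beside it. The method was tested on simulated data. The design had assumed TPM, and the same test was kept. A total of 19 alternatives was tried.

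Named genes were the 12 protein-coding genes with the largest called difference in each direction (mean at least 20, groups not overlapping, leaving out marker lists, sex-linked genes and symbols that start with Gm and a digit or end in Rik), the same among genes at 20 or more in all BM and Blood libraries, up to 5 members per list by adjusted p, and a set of neutrophil genes. Other list members (Angpt1, Hbegf, Hsp90aa1, Cxcl1, Cxcl2, Egr1, Fos, Junb, Rhob, Rgs2, Dusp1, Tlr4, Mmp9, Cd74, the C1q genes and the remaining B-cell markers among them) were chosen after their values were seen. A few genes that the rule names are not reported here. The comparison and the gene lists were chosen with earlier results of these data known.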

Additional observations from a re-analysis of the deposited data

How the results depend on the processing

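No call in Lung against Spleen changed direction under any of the 19 alternatives, for the counts, the list counts and the named genes that were recomputed. Without a filter on low values, 471 genes passed (431 higher and 40 lower in Lung) of 20041. Quantile normalization gave 451 lower genes. Library weights gave 4466 genes (2290 higher and 2176 lower), with weights of 4.31 for Lung replicate 2 and 0.313 to 0.333 for the other Lung libraries. Voom weights gave 772 genes (649 higher, 123 lower). A fit of all 18 libraries gave 783 genes, of which 94 were lower. Leaving out 1 library at a time gave 623 to 1995 genes, 529 to 1278 higher and 49 to 717 lower; the cause was not tested. Of the 130 named genes that passed, 79 did so without each library in turn and 57 under all 19 alternatives.

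With the replicate number as a block, 1182 genes passed (931 higher and 251 lower), 1125 of them shared with the unblocked fit. Same-numbered libraries had correlations of 0.0479, -0.00277 and 0.0283 in their deviations from the group means, and not every library correlated best with its own number, so the numbers were not taken as pairs. With 3 libraries a group and 2940000 estimated counts in the shallowest, differences in genes of few reads were hardest to detect, and counts of 0 there allow up to 3 reads.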

Other observations

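Marker lists of rarer cells held a few further differences, to be read beside the 7.41% higher and 2.23% lower over all genes. Among 5 tested erythroid markers, the globin genes Hbb-bs and Hba-a2 were higher in Lung, Hba-a2 losing its call without 3 of the 6 libraries in turn (adjusted p up to 0.0917), and the list summed to 649, 168 and 220 scaled counts in Lung and 84.2, 30.6 and 32.5 in Spleen. Hbb-bs had 530, 143 and 174 in Lung and 68.8, 14.7 and 8.66 in Spleen, and near-identical globin copies may share its reads. Among 4 tested mast cell and basophil markers, Gata2 and Kit were higher in Lung, but each lost its call without 5 of the 6 libraries in turn (adjusted p up to 0.108 and 0.152). The list summed to 233, 116 and 19.6 in Lung and 13.5, 6.62 and 28.6 in Spleen, which overlapped. Of 12 monocyte markers, Ace, which lung capillary endothelium also expresses, was higher, with 349, 282 and 74.9 in Lung and 5.22, 8.03 and 0.0473 in Spleen. Of 7 smooth muscle and pericyte markers 4 were higher, and of 5 mesothelial markers 4 were higher, with 2 of each passing without each library in turn. Ppbp, a platelet chemokine, was the single platelet marker of 8 tested that passed. It was higher in Lung and lost its call without 3 of the 6 libraries in turn (adjusted p up to 0.101).

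Among 19 survival genes of the Bcl2 family, Bcl2a1b had 105, 237 and 294 scaled counts in Lung and 42.7, 16.2 and 14 in Spleen, and it rose together with Bcl2a1d, a near-identical copy with which it may share reads and which lost its call without 5 of the 6 libraries in turn (adjusted p up to 0.125). Bid, a pro-apoptotic member, fell, with 16.1, 12.2 and 45.5 in Lung and 75.7, 96.4 and 67.3 in Spleen (log2 difference -1.87, limma adjusted p = 0.0266), and also lost its call without 5 of the 6 (adjusted p up to 0.132). All other survival genes tested did not pass, and over all genes 7.41% were higher and 2.23% lower. Of 25 interferon-gamma response genes, Iigp1 rose and Ciita fell, beside the same shares over all genes. Each passed without 2 of the 6 libraries in turn (adjusted p otherwise up to 0.0899 and 0.166).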
